A study of Saccharomyces cerevisiae with 6 samples.

Results

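The 8 genes described here act in the uptake of small peptides and glutathione by budding yeast, Saccharomyces cerevisiae, and in the breakdown of glutathione inside the cell. They were taken by name from the 5795 protein-coding genes of a table of RNA levels, and all 8 were found. PTR2, OPT1 and OPT2 code for transporters, CUP9 for a repressor, and ECM38, DUG1, DUG2 and DUG3 for enzymes of glutathione breakdown. The table holds 6 strand-specific RNA sequencing libraries in 3 groups of 2 biological replicates. These are cells with the gat1-delta deletion in medium containing glutamine, and cells with that deletion in medium containing proline. The last group is cells with the dal80-delta deletion in medium containing glutamine. Gat1 and Dal80 are GATA-family factors, an activator and a repressor of genes for poor nitrogen sources, and each library comes from a strain that lacks one of them. The parent strain is not given in the sources used here, and neither an undeleted strain nor dal80-delta cells in proline were analysed here, so a difference between the strains cannot be assigned to either deletion alone.

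Yeast imports dipeptides and tripeptides through Ptr2. The homeodomain protein Cup9 represses PTR2, and the ubiquitin ligase Ubr1 marks Cup9 for destruction when short peptides are present. Opt1, also called Hgt1, is the high-affinity glutathione transporter of the plasma membrane, and Opt2 is a member of the same oligopeptide transporter family that has been linked to glutathione balance and to membrane lipids. Glutathione is a tripeptide of glutamate, cysteine and glycine. It can be cut in the vacuole by Ecm38, a gamma-glutamyl transpeptidase, or in the cytosol by a complex of Dug2 and Dug3, after which the dipeptidase Dug1 splits cysteinylglycine. The vacuolar route is known to be sensitive to the nitrogen source, and the Dug2 and Dug3 genes to sulfur supply.

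Depth ranged from 17009715 to 34718641 recovered reads per library, counted over all 6192 features. Across genes, replicates of a group correlated at a Pearson r between 0.989 and 0.995. Levels are given as scaled reads, the authors' read counts after scaling each library to nearly the same total over genes. GAT1 had 2 to 3 reads in each of the gat1-delta libraries against 1603 and 1062 in the dal80-delta libraries. DAL80 had 1 and 0 reads in dal80-delta, but also 2 and 1 in gat1-delta cells in glutamine, so its reads do not check the deletion. The strains also differed in mating type genes. The summed level of 7 a-specific genes lay between 171 and 193 scaled reads in gat1-delta glutamine libraries, between 4922 and 6517 in gat1-delta proline and between 25721 and 27468 in dal80-delta. That of 4 alpha-specific genes lay between 36055 and 36269.7, between 84262 and 89581, and between 433 and 448, in the same order. Both sums differed without overlap between the strains and between the media. Their part in the results below, in the medium comparison as in the strain comparison, was not tested.

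In gat1-delta cells the uptake genes changed in opposite directions between glutamine and proline. OPT2 rose 87.1-fold in proline, while PTR2 fell to a level 4.52-fold lower and OPT1 to one 2.14-fold lower. CUP9, the repressor gene, rose 3.02-fold. Among the breakdown genes ECM38 and DUG3 rose by less than 2-fold, and DUG1 and DUG2 fell. Tested with limma among 5594 genes and adjusted over all of them, each of the 8 had an adjusted p below 0.05, 4 higher and 4 lower in proline. Over all genes tested 71.6% passed, 56.5% as higher and 15.1% as lower. The libraries of both media did not overlap for any of the 8, which was so for 86.5% of all genes. The share of members called higher was thus no more than the background, and that called lower was above it. The members had a median log2 fold change of 0.02 and all genes one of 0.50, so that a gene standing still relative to the bulk of the transcriptome appears slightly higher in proline. The TMM method, which assumes that most genes do not change, brings the median of all genes to 0.06, and with it 3 members were higher and 4 lower, against 33.8% and 29.8% of all genes.

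**Figure D1:**
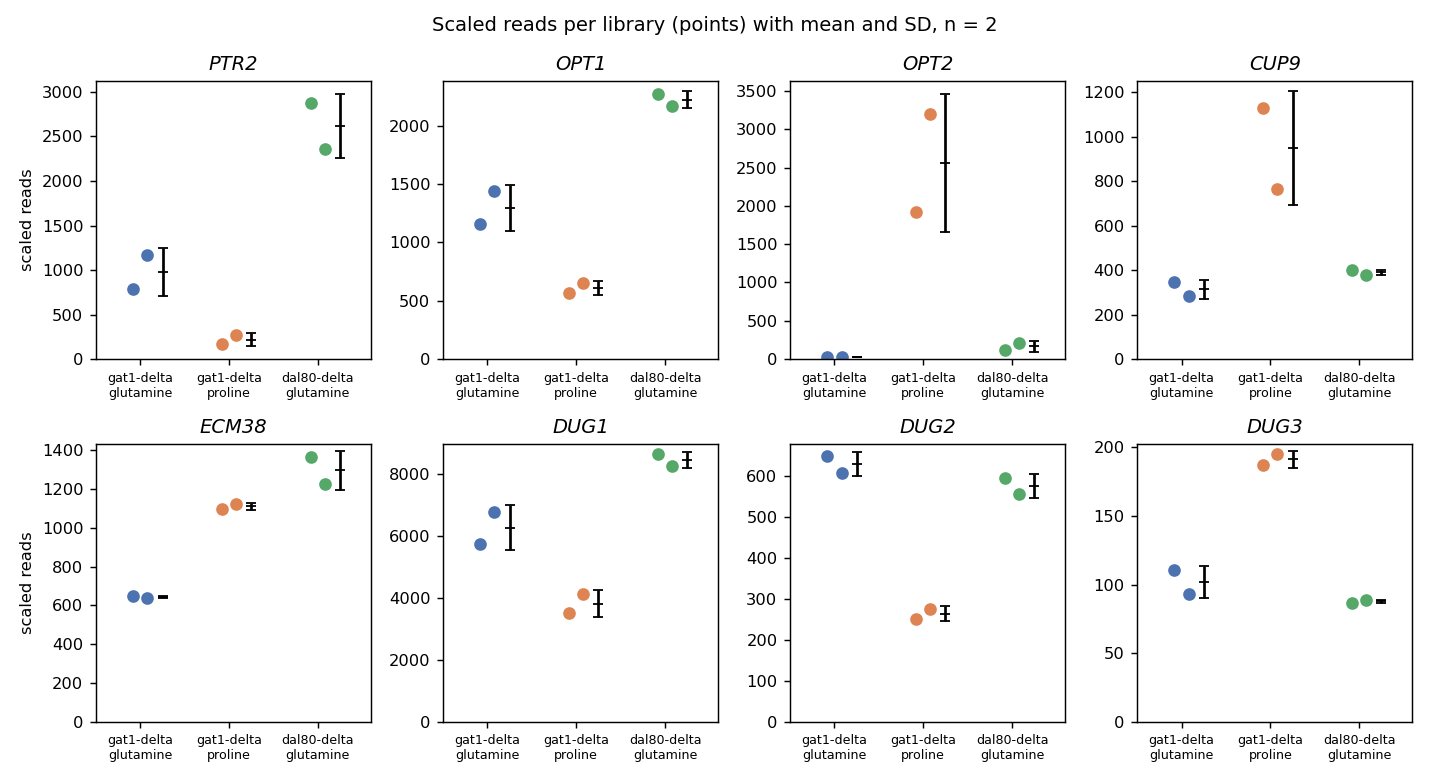
Scaled reads (vertical axis, linear and starting at 0) of each gene in the 3 groups; points are libraries and bars the mean and SD of n = 2. OPT2 stands at 1923 and 3195 in proline and at 212 or less elsewhere, while PTR2, OPT1, DUG1 and DUG2 are lowest in proline.

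PTR2 (YKR093W) lies on the plus strand of chromosome 11, from 615730 to 617535 in build R64, which holds for all positions below. It had 784 and 1170.4 scaled reads in the gat1-delta glutamine libraries, 164 and 269 in gat1-delta proline, and 2875 and 2361 in dal80-delta glutamine. The groups did not overlap, with proline lowest and dal80-delta highest. The log2 fold change of proline against glutamine was -1.99 ± 0.24 (SE, limma adjusted p = 0.000108), the 53rd lowest of 5594 genes. Here and below, fold changes on the log2 scale are those of density plus a pseudocount, which understates the change of low genes. OPT1 (YJL212C, chromosome 10, 33850 to 36249, minus strand) had 1158 and 1437 scaled reads in gat1-delta glutamine, 565 and 649 in proline, and 2276 and 2171 in dal80-delta. It kept the same order of groups as PTR2 with a smaller span, and its log2 fold change in proline was -1.03 ± 0.15 (limma adjusted p = 0.000296). In bulk RNA, a lower level in every cell and a smaller share of cells with the transcript cannot be told apart.

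OPT2 (YPR194C, chromosome 16, 924304 to 926937, minus strand) went the other way. It had 31.5 and 27.3 scaled reads in gat1-delta glutamine, resting on 36 and 49 recovered reads, against 1923 and 3195 in gat1-delta proline and 117 and 212 in dal80-delta glutamine. Proline was highest by a wide margin and the 3 groups did not overlap. The log2 fold change in proline was 4.82 ± 0.26 (limma adjusted p = 1.85e-06), the 16th highest of 5594 genes. On recovered reads edgeR gave 5.96, nearer to the ratio of the means. In density, OPT2 moved from rank 5514 of the tested genes in gat1-delta glutamine to rank 1519 in proline, and stood at rank 4869 in dal80-delta.

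The 3 transporter genes can be compared per length. Their summed density was 1093 ± 232 scaled reads per kb in gat1-delta glutamine and 1344 ± 407 in proline (SD, n = 2), a difference smaller than the spread of the proline libraries. It was 2438 ± 206 in dal80-delta glutamine, above both. The makeup of this sum changed more than its size. OPT2 made up 1.29% and 0.823% of it in the gat1-delta glutamine libraries, 69.1% and 74.3% in proline, and 1.72% and 3.51% in dal80-delta. PTR2 and OPT1 were close to equal per length in gat1-delta glutamine, with a ratio of OPT1 to PTR2 of 1.11 and 0.924. That ratio was 2.59 and 1.82 in proline, and 0.596 and 0.692 in dal80-delta, so that PTR2 moved further than OPT1 both ways.

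**Figure D2:**
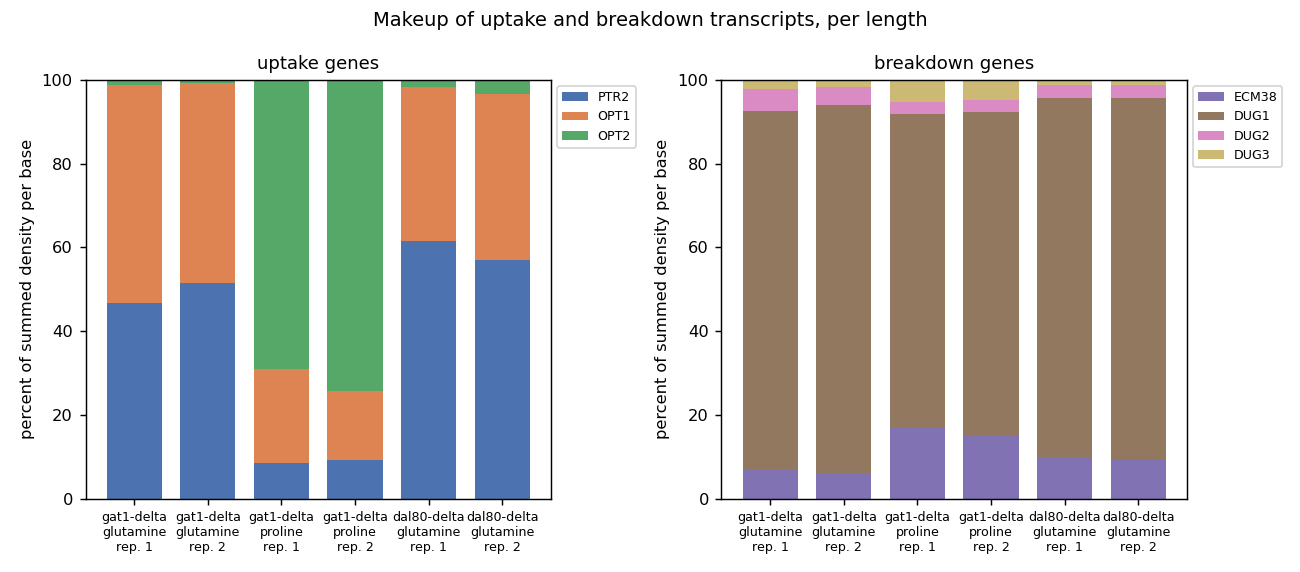
Share of each gene (vertical axis, percent of summed density per base) among the uptake genes (left) and the breakdown genes (right) in each of the 6 libraries. OPT2 takes 69.1% and 74.3% of the uptake sum in proline, and DUG1 takes at least 74.7% of the breakdown sum in every library.

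CUP9 (YPL177C, chromosome 16, 213042 to 213962, minus strand), whose product represses PTR2, had 344 and 283 scaled reads in gat1-delta glutamine, 1128 and 766 in proline, and 398 and 380 in dal80-delta. Proline was highest without overlap, although its libraries differed by more than the distance between the other groups. The log2 fold change in proline was 1.51 ± 0.19 (limma adjusted p = 0.000133), and 10.8% of tested genes rose more. The ratio of PTR2 to CUP9 density was 1.16 and 2.11 in gat1-delta glutamine, 0.0741 and 0.179 in proline, and 3.68 and 3.17 in dal80-delta. The levels of Cup9 protein and its turnover were not measured.

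Stretches of 200 bases upstream of the transporter genes are shown because GATA factors, among them the deleted ones, are known to bind GATAAG. They were read from the RefSeq genome of build R64, each on the strand of its gene and 5′ to 3′, with GATAAG and its reverse complement in capitals. PTR2 is chr11:615280-615479 on the plus strand, 450 to 251 bases before the start codon. OPT1 is chr10:36350-36549 on the minus strand, 300 to 101 bases before it, and OPT2 is chr16:927188-927387 on the minus strand, 450 to 251 bases before it.
PTR2: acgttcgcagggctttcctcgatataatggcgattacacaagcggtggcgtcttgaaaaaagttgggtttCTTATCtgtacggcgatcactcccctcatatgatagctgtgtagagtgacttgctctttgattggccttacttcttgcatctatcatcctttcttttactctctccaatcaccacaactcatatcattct
OPT1: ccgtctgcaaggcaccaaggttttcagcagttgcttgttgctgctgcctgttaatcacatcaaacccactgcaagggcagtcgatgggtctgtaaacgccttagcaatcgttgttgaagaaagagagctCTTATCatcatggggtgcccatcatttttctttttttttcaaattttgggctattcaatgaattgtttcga
OPT2: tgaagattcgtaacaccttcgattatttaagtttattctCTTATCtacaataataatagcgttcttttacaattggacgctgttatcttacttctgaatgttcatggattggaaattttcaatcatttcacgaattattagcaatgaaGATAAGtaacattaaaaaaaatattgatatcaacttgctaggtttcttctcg
OPT2 held 2 matches, which begin 411 and 302 bases before the start codon, and PTR2 and OPT1 held 1 each, at 380 and 171 bases. Over 500 bases, 3.67% of 5770 genes held 2 or more. The stretches start at different distances, and each holds all GATAAG matches of its gene within 500 bases. In the 300 bases nearest the start codon PTR2 and OPT2 held 0.

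The breakdown genes did not move together in proline, where ECM38 and DUG3 rose and DUG1 and DUG2 fell. ECM38 (YLR299W, chromosome 12, 726069 to 728051, plus strand), for the vacuolar transpeptidase, had 649 and 639 scaled reads in gat1-delta glutamine, 1097 and 1124 in proline, and 1367 and 1226 in dal80-delta. Both other groups lay above gat1-delta glutamine without overlap. The log2 fold change in proline was 0.75 ± 0.13 (limma adjusted p = 0.000711), but 37.3% of tested genes rose more. The call ended with TMM scaling, at 0.26 ± 0.12 (limma adjusted p = 0.0918), and likewise with RLE scaling (0.171), snoRNA scaling (0.223), edgeR (0.0849) and DESeq2 (0.229). EdgeR was itself run with TMM factors and DESeq2 with RLE factors, so these losses are not independent of each other. Over all alternatives its adjusted p ranged from 0.000637 to 0.229.

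DUG3 (YNL191W, chromosome 14, 280432 to 281505, plus strand), for the amidotransferase partner in the cytosolic complex, had 110.3 and 93.5 scaled reads in gat1-delta glutamine, 187 and 195 in proline, and 86.9 and 88.7 in dal80-delta. Proline was highest, and the glutamine groups lay close together. The log2 fold change in proline was 0.77 ± 0.14 (limma adjusted p = 0.000882), and 35.9% of tested genes rose more. With TMM scaling it was 0.34 ± 0.12 (limma adjusted p = 0.0298). The call ended with snoRNA scaling (adjusted p = 0.111) and in DESeq2 (adjusted p = 0.157).

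DUG2 (YBR281C, chromosome 2, 764970 to 767606, minus strand), for the other subunit of the complex, fell. It had 649.6 and 608 scaled reads in gat1-delta glutamine, 251 and 276 in proline, and 596 and 556 in dal80-delta. Proline was lowest by more than 2-fold, with a log2 fold change of -1.09 ± 0.13 (limma adjusted p = 0.000114). The subunit genes thus traded places per length. The ratio of DUG2 to DUG3 density was 2.40 and 2.65 in gat1-delta glutamine, 2.79 and 2.55 in dal80-delta, and 0.547 and 0.576 in proline. The glutamine ratios of both strains overlapped and the proline ratios lay far below them. A ratio within a library does not depend on the scaling between libraries.

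DUG1 (YFR044C, chromosome 6, 239992 to 241437, minus strand), for the dipeptidase, was the most abundant of the 8 per length in every library. It had 5747 and 6772 scaled reads in gat1-delta glutamine, 3504 and 4129.7 in proline, and 8634 and 8261 in dal80-delta. The groups did not overlap, with proline lowest, and its log2 fold change in proline was -0.71 ± 0.14 (limma adjusted p = 0.00202). The 4 breakdown genes together stood at 4987 ± 476 scaled reads per kb in gat1-delta glutamine, 3478 ± 328 in proline and 6796 ± 242 in dal80-delta (SD, n = 2). DUG1 made up 85.5% and 88.0% of this sum in gat1-delta glutamine, 74.7% and 77.0% in proline, and 85.7% and 86.2% in dal80-delta. The share of ECM38 was 7.03% and 6.05%, 17.0% and 15.3%, and 9.89% and 9.34% in the same order.

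Upstream stretches of the breakdown genes are shown for ECM38, which was higher in dal80-delta, and for DUG2 and DUG3, which moved apart in proline. Capitals mark GATAAG in the first, and in the others CTGTGG, the core letters bound by the sulfur regulators Met31 and Met32, or their reverse complements. All are 300 to 101 bases before the start codon. ECM38 is chr12:725769-725968 on the plus strand, DUG2 is chr2:767707-767906 on the minus strand and DUG3 is chr14:280132-280331 on the plus strand.
ECM38: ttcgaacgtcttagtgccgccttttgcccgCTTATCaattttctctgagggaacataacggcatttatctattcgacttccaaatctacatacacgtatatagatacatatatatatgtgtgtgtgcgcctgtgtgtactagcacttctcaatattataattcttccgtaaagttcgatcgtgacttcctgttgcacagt
DUG2: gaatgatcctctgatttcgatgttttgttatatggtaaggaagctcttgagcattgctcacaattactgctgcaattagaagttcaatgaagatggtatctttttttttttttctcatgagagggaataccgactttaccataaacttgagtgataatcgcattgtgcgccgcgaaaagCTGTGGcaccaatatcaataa
DUG3: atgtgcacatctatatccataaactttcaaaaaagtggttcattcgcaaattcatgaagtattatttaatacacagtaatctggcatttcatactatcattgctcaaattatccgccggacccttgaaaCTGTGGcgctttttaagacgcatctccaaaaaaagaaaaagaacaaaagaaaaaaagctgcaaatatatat
ECM38 held 1 GATAAG match, which begins 270 bases before the start codon. DUG2 and DUG3 each held 1 CTGTGG match, at 121 and 171 bases, and no GATAAG in 500 bases. Whether any of these matches acts on its gene was not tested.

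Over 500 bases before the start codon, counting both strands, 6 of the 8 genes held GATAAG, against 22.7% of 5770 genes. CUP9 held 2 matches, at 453 and 443 bases, and DUG1 1, at 60 bases. CTGTGG stood before 5 of 8 genes, PTR2, CUP9, DUG1, DUG2 and DUG3, against 13.4% of all. CACGTG, the letters bound by Cbf1, stood before OPT2 alone, against 6.38% of all, and TGACTCA, bound by Gcn4, before none, against 4.09%. Over 300 bases GATAAG stood before 3 of the 8, against 14.7% of 5771 genes, and CTGTGG before 4, against 6.93%. A match of letters is not a binding site, and none of these 4 motifs overlapped another in the 8 windows of 500 bases.

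**Figure D3:**
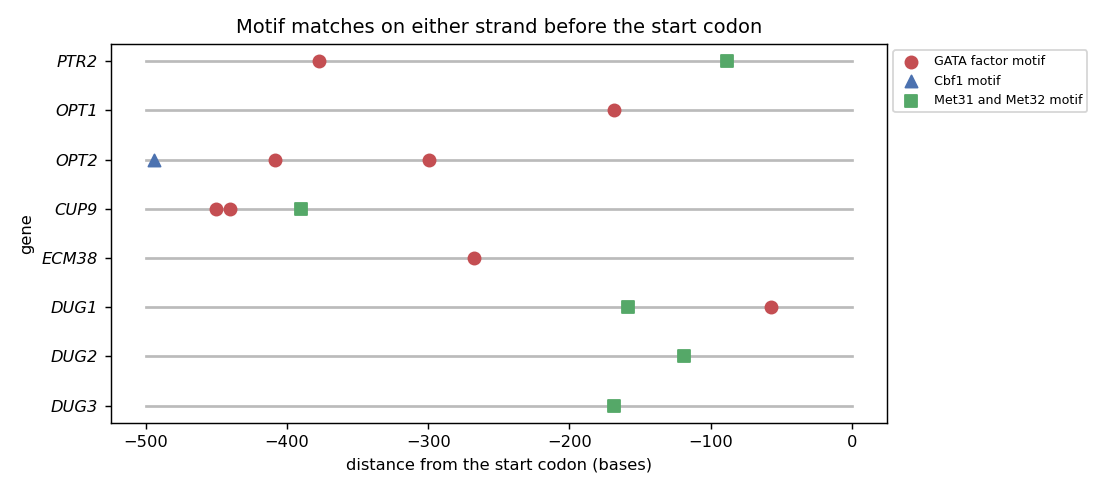
Motif matches on either strand in the 500 bases before each start codon (horizontal axis, bases from the start codon); circles are GATAAG, triangles CACGTG and squares CTGTGG. OPT2 and CUP9 hold 2 circles each, DUG2 and DUG3 a square and no circle.

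In glutamine medium, dal80-delta cells were compared with gat1-delta cells. PTR2, OPT1, OPT2 and ECM38 were higher in dal80-delta cells, and CUP9, DUG1, DUG2 and DUG3 did not pass. Of the 8 members 4 were higher and 0 lower, where 5.45% of all genes passed, 3.97% as higher and 1.48% as lower. At an unadjusted p under 0.05, limma gave 5 higher and 0 lower, against 1587 of 5594 genes in either direction. EdgeR on recovered reads called 4 higher and 0 lower, against 6.9% and 1.2% of all genes, and DESeq2 5 higher and 0 lower, against 7.83% and 1.47%. The members had a median log2 fold change of 0.60 against -0.15 over all genes. This comparison shares the gat1-delta glutamine libraries with the first, so the changes in both are not independent.

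PTR2 was 2.68-fold higher in dal80-delta, with a log2 fold change of 1.40 ± 0.24 (limma adjusted p = 0.0111), and 1.09% of tested genes were raised more. Without dal80-delta replicate 1 its call ended, at 1.26 (limma adjusted p = 0.0769). OPT1 was 1.71-fold higher (log2 0.76 ± 0.15, limma adjusted p = 0.021), and its adjusted p rose to 0.0976, 0.171 and 0.122 without gat1-delta glutamine replicate 1, dal80-delta replicate 1 and dal80-delta replicate 2, and to 0.379 with snoRNA scaling. OPT2 was 5.60-fold higher in scaled reads, with 117 and 212 against 31.5 and 27.3, although it stayed far below its level in proline. Its log2 fold change was 1.29 ± 0.26 (limma adjusted p = 0.0245). The adjusted p of OPT2 was 0.0741 and 0.0698 without either gat1-delta glutamine replicate, 0.147 without dal80-delta replicate 2 and 0.33 with the larger pseudocount, while edgeR on recovered reads gave 2.64 (adjusted p = 0.00154).

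ECM38 was 2.01-fold higher in dal80-delta (log2 0.96 ± 0.13, limma adjusted p = 0.00297), and 2.06% of tested genes were raised more. It held its call without any single library, and lost it with snoRNA scaling alone (adjusted p = 0.184), where the dal80-delta libraries had factors of 0.835 and 1.18. The ratio of ECM38 to DUG3 density was 3.19 and 3.70 in gat1-delta glutamine, 3.18 and 3.11 in proline, and 8.52 and 7.49 in dal80-delta. By that measure, the proline libraries lay just below the gat1-delta glutamine libraries, and dal80-delta stood far above both.

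The remaining members had small differences between the strains. CUP9 had a log2 fold change of 0.30 ± 0.19 (limma adjusted p = 0.308) and DUG1 one of 0.43 ± 0.14 (adjusted p = 0.107), which DESeq2 called (adjusted p = 0.0193). DUG2 stood at -0.12 ± 0.13 (limma adjusted p = 0.575) and DUG3 at -0.17 ± 0.14 (limma adjusted p = 0.425). The libraries of both strains did not overlap for any of these 4, nor for 63.9% of all genes tested.

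**Figure D4:**
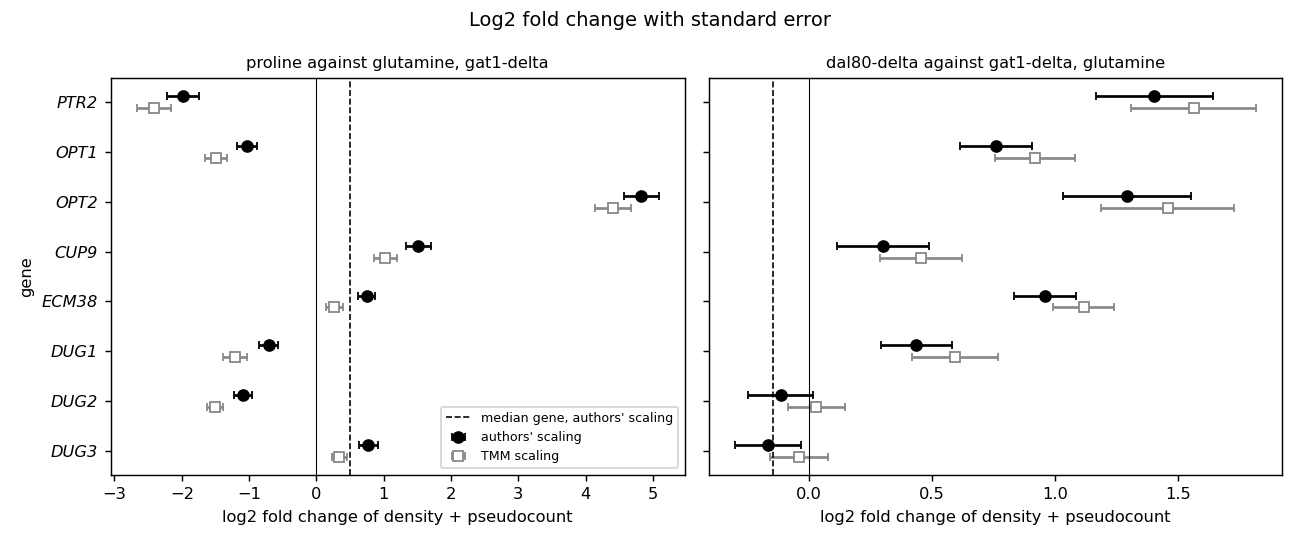
Log2 fold change with its SE (horizontal axis) of each gene, for proline against glutamine in gat1-delta cells (left) and dal80-delta against gat1-delta cells in glutamine (right), under the authors' scaling (filled) and TMM scaling (open). The dashed line is the median gene at 0.50 and -0.15; ECM38 and DUG3 lie close to it on the left, and OPT2 lies far to its right.

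The direct comparison of dal80-delta glutamine with gat1-delta proline, which differ in strain and medium, was used to order the levels. Of the 8 members 7 passed, where 76.8% of all genes did, and no member overlapped between these groups, as for 91.1% of all genes. PTR2 and OPT1 ran from gat1-delta proline through gat1-delta glutamine to dal80-delta glutamine, each step past the threshold. OPT2 ran from gat1-delta glutamine through dal80-delta glutamine to proline, likewise, with a last step of 3.53 ± 0.26 on the log2 scale (limma adjusted p = 6.86e-06 for a log2 fold change of -3.53 of dal80-delta against proline). For CUP9 and DUG3 proline was highest, and for DUG1 and DUG2 lowest, with both glutamine groups not separated by the test. DUG3 was not called against dal80-delta in DESeq2 (adjusted p = 0.0863). ECM38 was lowest in gat1-delta glutamine. Its levels in proline and dal80-delta did not differ by the test (log2 0.21 ± 0.13, limma adjusted p = 0.149), but with TMM scaling dal80-delta was higher by 0.85 ± 0.12 (limma adjusted p = 0.000339).

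Other genes of peptide uptake are given next. Of 12 genes for its control and for related transporters 8 rose and 1 fell in proline, where 56.5% and 15.1% of all genes did. Their median log2 fold change was 0.85 against 0.50 over all genes. TMM scaling gave 7 higher and 2 lower, against 33.8% and 29.8% of all genes, and snoRNA scaling left 5 called in all. DAL5, for a permease of allantoate and dipeptides, had 88.4 and 90.1 scaled reads in gat1-delta glutamine, 3384 and 3886 in proline, and 112.6 and 107.8 in dal80-delta. It rose by 4.85 ± 0.13 in proline (limma adjusted p = 6e-08), where OPT2 was at 4.82. OPT2 had fewer scaled reads in gat1-delta glutamine, 31.5 and 27.3, so the pseudocount understates its change more than that of DAL5. STP2, for a transcription factor of the external amino acid sensor, rose by 1.78 ± 0.16, and TUP1, for a general corepressor, fell by 0.48 on the log2 scale. Between the strains limma called 0 of the 12, with 1 at an unadjusted p under 0.05, and edgeR and DESeq2 also called 0. DAL5 was at 0.22 ± 0.13 there (limma adjusted p = 0.294), against the 1.29 of OPT2.

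Of 8 genes that make, move or otherwise break down glutathione 7 were tested, all but GEX1. Of these 0 rose and 2 fell in proline, where 56.5% and 15.1% of all genes did. GSH2, for glutathione synthetase, fell by 0.69 on the log2 scale, and OXP1, for oxoprolinase, by 0.68. The median was -0.19 against 0.50 over all genes, and 6 were lower with TMM scaling and in edgeR, which also used TMM factors. No member of this list rose at an unadjusted p under 0.05 in limma, and 0 rose in edgeR and DESeq2. Between the strains limma called 0, with 1 at an unadjusted p under 0.05, and edgeR and DESeq2 also called 0. Of 9 genes that use glutathione 3 rose and 1 fell in proline (median 0.11), where 56.5% and 15.1% of all genes did. The rises were led by the transferase gene GTT2 (1.71 ± 0.14) and by URE2 (1.08 ± 0.21), a relative of glutathione transferases that restrains GATA factors. The reductase gene GLR1 was at -0.35 ± 0.13. TMM scaling gave 2 higher and 4 lower. The 4 called genes became 2 without gat1-delta glutamine replicate 2 or without either gat1-delta proline replicate, and also with snoRNA scaling, while DESeq2 called 2 higher and 5 lower. Between the strains 1 was higher, the transferase gene GTT1 (0.77 ± 0.14), and 0 lower, with 2 lower at an unadjusted p under 0.05 and 0 lower in edgeR and DESeq2. That single call was lost without gat1-delta glutamine replicate 2, without either dal80-delta replicate and with snoRNA scaling, and the number called ranged from 0 to 2 with 1 library left out.

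Peptidases cut peptide bonds, as Dug1 does. Of 11 peptidase genes 3 rose and 5 fell in proline (median -0.32), where 56.5% and 15.1% of all genes did. The peptidase gene PRD1 was at -0.77 ± 0.12 and the vacuolar carboxypeptidase gene CPS1 at 0.99 ± 0.16. TMM scaling gave 1 higher and 7 lower, against 33.8% and 29.8% of all genes. Between the strains 6 were higher in dal80-delta (median 0.61), where 3.97% of all genes were. They were led by the vacuolar proteases PRB1 (0.85 ± 0.13) and PEP4 (0.90 ± 0.15). None was lower in limma, also at an unadjusted p under 0.05, and edgeR and DESeq2 called 7 higher and 0 lower. With snoRNA scaling the count of 6 fell to 0, with the replicate number as a block to 2, and it was 2 and 1 without gat1-delta glutamine replicates 1 and 2, 0 and 1 without dal80-delta replicates 1 and 2, and 7 without either proline replicate.

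PTR2, OPT1, OPT2, DUG1 and DUG2 lie within 50 kb of a chromosome end, at 49.3, 33.8, 21.1, 28.7 and 45.6 kb, and CUP9, ECM38 and DUG3 lie 213, 350.1 and 280.4 kb from one. No member overlapped another feature of the table on either strand, and a BLAST search of their coding sequences found a similar gene only for CUP9, with 70.3% identity to TOS8 over 172 bases. OPT1 and OPT2 did not match each other in that search. In a global alignment they shared 63.7% of 2223 aligned bases, gaps left out, which is not comparable with the BLAST identity. The neighbours of OPT2, HPA2 and YPR196W, rose in proline by 0.85 ± 0.14 and 0.77 ± 0.13, against 4.82 for OPT2. PEX2, which lies 669 bases upstream of OPT1 on the other strand, rose in proline by 0.69 ± 0.14 where OPT1 fell, and was higher in dal80-delta by 0.62 ± 0.14 (limma adjusted p = 0.0404). YHC1, 652 bases upstream of ECM38 on the other strand, rose in proline by 1.56 ± 0.13 and stood at -0.25 ± 0.13 in dal80-delta (limma adjusted p = 0.239), unlike ECM38. Neighbours were taken by position, and those named were chosen after their values were seen.

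Likeness of pattern was measured as the Euclidean distance over the 6 libraries between log2 densities centred on each gene's mean. The genes nearest to OPT2 were YJL133C-A, the ammonium permease gene MEP1 and the proline permease gene PUT4, at distances of 0.83, 0.87 and 1.01. PUT4 was at 4.35 in proline and 1.45 in dal80-delta. Nearest to PTR2 were TPO2, GAD1 and CAR2, at 0.92, 0.93 and 0.98, and the nearest member was OPT1 at 1.66. Nearest to OPT1 were YDC1, IST2 and PST2, at 0.28, 0.31 and 0.31. The nearest gene to CUP9 was GTF1 at 0.15, followed by its relative TOS8 at 0.22 and RAD2 at 0.22. ECM38 lay nearest to SGA1, OSW5 and YTP1, at 0.22, 0.29 and 0.34. DUG1 lay nearest to GAS5, YHC3 and CPT1, at 0.12, 0.14 and 0.17, and DUG2 to MSC7, TIF1 and RPL16B, at 0.14, 0.15 and 0.15. TIF1 and RPL16B are known to have close copies, whose identity was not measured here, so their reads are taken as uncertain. DUG3 lay nearest to ACK1, MNT4 and HMO1, at 0.03, 0.07 and 0.07. For OPT2 no other member was closer than 3.55.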

How the data were processed

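Hot-phenol RNA was depleted of ribosomal RNA, and strand-specific libraries were made from 125 ng and sequenced as paired 50 nt reads, per the labels' protocols. TopHat and build R64 are named in the submitters' processing notes, without a role. For the counting program and its use of strand, the sources used here say nothing. Per the file headers, the authors deposited a density signal and a read count for each feature and library. The density equalled the read count divided by feature length. Read counts were whole in the first gat1-delta proline library and, in the other 5 deposited columns, whole multiples of 1 step (100% of positive values, tolerance 0.01 reads), so whole reads were recovered. A further 6 columns of group sums were not used.

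A gene was tested if 2 or more libraries held 10 or more scaled reads of it. The test was limma (version 3.58.1, R 4.3.3) on log2(density + 0.0229), the pseudocount being the 5th percentile of positive values, with an intensity trend, all 6 libraries and Benjamini-Hochberg adjustment over 5594 genes. The test was planned for values that are not whole counts. EdgeR 4.0.16 and DESeq2 1.42.0 on recovered reads, TMM, RLE and snoRNA scaling, other filters, pseudocounts and thresholds, a replicate block and each library left out were alternatives. EdgeR was run with TMM factors and DESeq2 with its default size factors, which are those of RLE, so neither is independent of these scalings. With 2 libraries a group, 3 residual degrees of freedom remained. Limma moderated the spread of each gene towards that of genes of like intensity. Its SEs and p-values therefore do not rest on the gene's own 3 degrees of freedom alone. The p-values measure the spread between libraries that the labels call biological replicates. Between replicates, the chi-square of their counts per degree of freedom was 41.6 to 70.8, above the 1 of pure sampling. The test was checked on simulated data in which far fewer genes changed than were called in proline. That check therefore does not cover a change as wide as the one in proline.

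The members and lists were chosen with earlier results of these data known. Named genes were the members, up to 2 genes of each list by adjusted p, the gene with the largest opposite change, and the 3 nearest patterns per member. Lists covered peptide uptake control, other glutathione genes, glutathione use, peptidases, regulators of sulfur and nitrogen genes, and mating type. GCG1 was matched to YER163C and APE1 to LAP4 through RefSeq. RefSeq R64 held 5786 of the gene identifiers, and start and end matched for 5754 of them (99.4%). Upstream stretches are counted from the start codon, since the gene models hold no UTRs.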

Additional observations from a re-analysis of the deposited data

How the results depend on the processing

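All 8 members kept their direction in proline under every alternative run, and 8 passed whichever library was left out. For that comparison 4006 genes passed, 2465 with snoRNA scaling, and 3476 to 3908 with 1 library left out. In proline 7 members passed in edgeR and with TMM or RLE scaling, where 3561, 3558 and 3530 of 5594 genes passed. In DESeq2 and with snoRNA scaling 6 members passed, where 3390 and 2465 genes did. Between the strains in glutamine 305 genes and 4 members passed. DESeq2 called 520 genes, snoRNA scaling 142 genes and 2 members, and a threshold of 0.01 left 115 genes and 1 member. With 1 library left out, which leaves a lone library assumed to vary like the others, 110 to 369 genes and 2 to 4 members passed. The genes numbered 180 without gat1-delta glutamine replicate 2, and 110 and 119 without dal80-delta replicates 1 and 2, and the members 2 without gat1-delta glutamine replicate 1 or either dal80-delta replicate. The direction of DUG2 between the strains turned from -0.12 to 0.0297 with TMM scaling, 0.0231 with RLE scaling, 0.0331 in edgeR and 0.0259 in DESeq2, never past the threshold. For dal80-delta glutamine against gat1-delta proline 7 members passed whichever library was left out, and 3719 to 4355 genes. With the replicate number as a block, 3886, 208 and 4179 genes and 8, 4 and 7 members passed in the 3 comparisons. Deviations of same-numbered libraries correlated at 0.00984, -0.25 and -0.0793, and the labels give no shared batch, so the numbers were not read as pairs. Levels of OPT2 in gat1-delta glutamine rest on 36 and 49 reads, which limits the precision of its folds.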

Other observations

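Regulators of sulfur and nitrogen genes were listed because several are known to act on the genes above. Of 12, 9 were called in proline, a share near the 71.6% of all genes. All 9 were higher, and the median log2 fold change of the 12 was 1.47 against 0.50 over all genes. None of the 12 was lower, in limma also at an unadjusted p under 0.05, and edgeR gave 9 higher and 0 lower. GZF3 was at 1.87 ± 0.13. DAL80, with 195 and 304 scaled reads in gat1-delta proline and at most 1.75 in any other library, was at 3.74 ± 0.19. Between the strains 1 was higher, GAT1, the gene the gat1-delta cells lack, and 0 lower in limma, with 1 lower at an unadjusted p under 0.05 and 0 lower in edgeR and DESeq2. The a-specific list had 7 of 7 genes higher in both comparisons, and the alpha-specific list 4 of 4 lower in dal80-delta. In proline 2 of the 4 alpha-specific genes were higher, but 1 with TMM, RLE or snoRNA scaling, in edgeR and in DESeq2. That count was also 1 without either gat1-delta glutamine replicate or without gat1-delta proline replicate 2, and 4 without gat1-delta proline replicate 1.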
